A study of Mus musculus with 16 samples.

Results

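The genes described here are those whose products sense, signal and repair DNA damage. They were chosen by name from a list of 46 symbols, of which 45 matched a gene identifier in the deposited tables and 1, *Prkdc*, did not and was not analysed here. The 45 genes stand among 20622 genes with total RNA values, and all 45 passed the filter on low counts in each readout. The study compared cultured KM cells with and without eIF4A2, an RNA helicase of the translation machinery. KM cells were grown from the lung tumours of 1 male mouse with the alleles KrasLSL-G12D/WT and Rosa26LSL-MYC/LSL-MYC, so every library carries both oncogenes. KM_NTC cells received a lentiCRISPR vector with a guide that has no target. KM_4A2cr cells received a CRISPR guide to coding sequence of *Eif4a2* and are a pool of 4 clones that lacked the protein on western blots. Clonal selection and loss of eIF4A2 therefore cannot be told apart in this design. Both lines were selected with puromycin and were otherwise untreated. Ribosome-protected fragments (RPFs), the stretches of mRNA shielded by translating ribosomes, and cytoplasmic total RNA were sequenced from the same lysates of 4 independent experiments per line on different days, which gave 16 libraries.

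Cells answer a broken or damaged DNA strand in ordered steps. The kinases ATM and ATR sense double-strand breaks and stalled replication forks and signal through CHK2 and CHK1, while the histone variant H2AX, MDC1 and 53BP1 mark the chromatin around a break. Breaks are then repaired by homologous recombination, which needs BRCA1 and BRCA2, or by end joining, whereas lesions of a single strand go to base excision or mismatch repair. Crosslinks between strands are handled by the Fanconi pathway, in which FANCD2 and FANCI receive a ubiquitin that the deubiquitinase USP1 and its partner WDR48 later take off. Many of these genes are most active in dividing cells.

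RPF libraries held between 4512403 and 9621848 counts and total RNA libraries between 5350919 and 9312622. *Eif4a2* itself had 97.7, 122, 99.8 and 389 RPF CPM, which are counts scaled to an equal library total, in KM_NTC replicates 1 to 4 and 51.0, 88.4, 74.8 and 346 CPM in KM_4A2cr. Its RPFs fell by 0.49 on the log2 scale (SE 0.15, adjusted p = 0.0941 by edgeR; 0.00304 without replicate 4 and between 0.30 and 0.377 without each other replicate), and its total RNA had a log2 fold change of -0.18 (adjusted p = 0.504). RNA reads from a gene disrupted by a guide need not disappear. Why RPFs of *Eif4a2* remained in KM_4A2cr was not tested, and these values check the labels only in part. The 7 epithelial marker genes summed to between 4230 and 6132 TPM, a level of total RNA scaled for transcript length and library total. Of 9 markers of alveolar type II cells, the cells from which the tumours arise, 7 were under 1 TPM in every library and *Sftpc* and *Sftpb* were at 0. *Abca3*, another of the 9, had between 27.61 and 47.61 TPM. The paper lists surfactant protein C, the product of *Sftpc*, among the markers by which it checked the identity of the cells. Fibroblast, endothelial and leukocyte markers were under 1 TPM in every library for 7 of 8, 5 of 6 and 6 of 8 genes. Replicate 4 stood apart in both lines, with a summed leukocyte marker level of at least 159.96 TPM against at most 99.03 TPM in the other replicates, nearly all of it *Cd68*. It also had the fewest RPF counts in each line, and for each named call it is stated whether the call held without replicate 4.

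In KM_4A2cr cells ribosome footprints on *Usp1* rose while its mRNA did not, and ribosome footprints on *Mdc1* and *Parp1* fell. The RPF calls of *Usp1* and *Parp1* were near the threshold (adjusted p = 0.091 and 0.0941 by edgeR) and were not made by DESeq2. None of these RPF calls held without replicate 1, 2 or 3. Footprints per mRNA rose for *Usp1* and fell for *Brca1*. In RPFs 3 of the 45 genes (6.67%) passed an adjusted p of 0.1, 1 higher and 2 lower in KM_4A2cr, where 10.3% of all 10291 tested genes did, 6.6% higher and 3.72% lower. In total RNA 0 of 45 passed by edgeR's quasi-likelihood test and 0 by DESeq2, where 6.13% of all 10880 tested genes passed by edgeR, 4.35% higher and 1.78% lower. At an unadjusted p under 0.05 there were 4 of 45 in total RNA, against 18.3% of all tested genes, and 8 of 45 in RPFs, against 23.4%. Footprints per mRNA, the difference between the RPF and the total RNA log2 fold change tested as an interaction in 1 edgeR model, passed for 2 of 45 genes (4.44%), 1 higher and 1 lower, where 2.91% of all 9989 tested genes did, 1.87% higher and 1.04% lower. With both directions counted together, the share of repair genes that passed was below the background in RPFs and total RNA. In RPFs that was so for rises and not for falls, with 2 of 45 lower against 3.72%. In footprints per mRNA the share was above the background, on 2 genes.

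Most repair genes had small differences, which leaned towards lower footprints in KM_4A2cr in replicate pairs 2 to 4 and not beyond all genes in pair 1. The RPF log2 fold change was below 0 for 32 of 45 genes (71.1%), where 51.1% of all tested genes were below 0, and its median was -0.11 against -0.01 for all genes. By pair, 24, 30, 28 and 28 of 45 were below 0 in RPFs for replicates 1 to 4. The medians of these pairs were -0.04, -0.06, -0.19 and -0.20, against -0.06, 0.02, 0.00 and -0.02 for all genes. In total RNA 27 of 45 were below 0, with a median of -0.09 against 0.01. In footprints per mRNA 25 of 45 were below 0, with a median of -0.05 against -0.02. The RPF values ran from -0.69 for *H2afx* to 0.68 for *Xrcc2*, neither of which passed the test. All 4 replicate pairs had the same direction for 13 of 45 genes in RPFs (28.9%), where 30.1% of all tested genes did. It was 9 of 45 in total RNA, against 25.4%, and 12 of 45 in footprints per mRNA (26.7%), against 21.8%. With other scalings of the libraries between 32 and 40 of the 45 were below 0 in RPFs. Scaling by library size alone moved the median of all genes to -0.14 in RPFs and -0.15 in total RNA, and the repair genes then lay at -0.25 and -0.24. Without replicate 4 the RPF median of the repair genes was -0.05, against -0.02 for all genes, and in total RNA -0.04 against -0.02. As each library is a bulk lysate, fewer cells with an mRNA and less of it per cell cannot be told apart. Without the replicate block, 0 of the 45 genes and 0 of all tested genes passed in any readout, and 1 repair gene had an unadjusted p under 0.05 in RPFs, 0 in total RNA and 4 in footprints per mRNA.

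**Figure D1:**
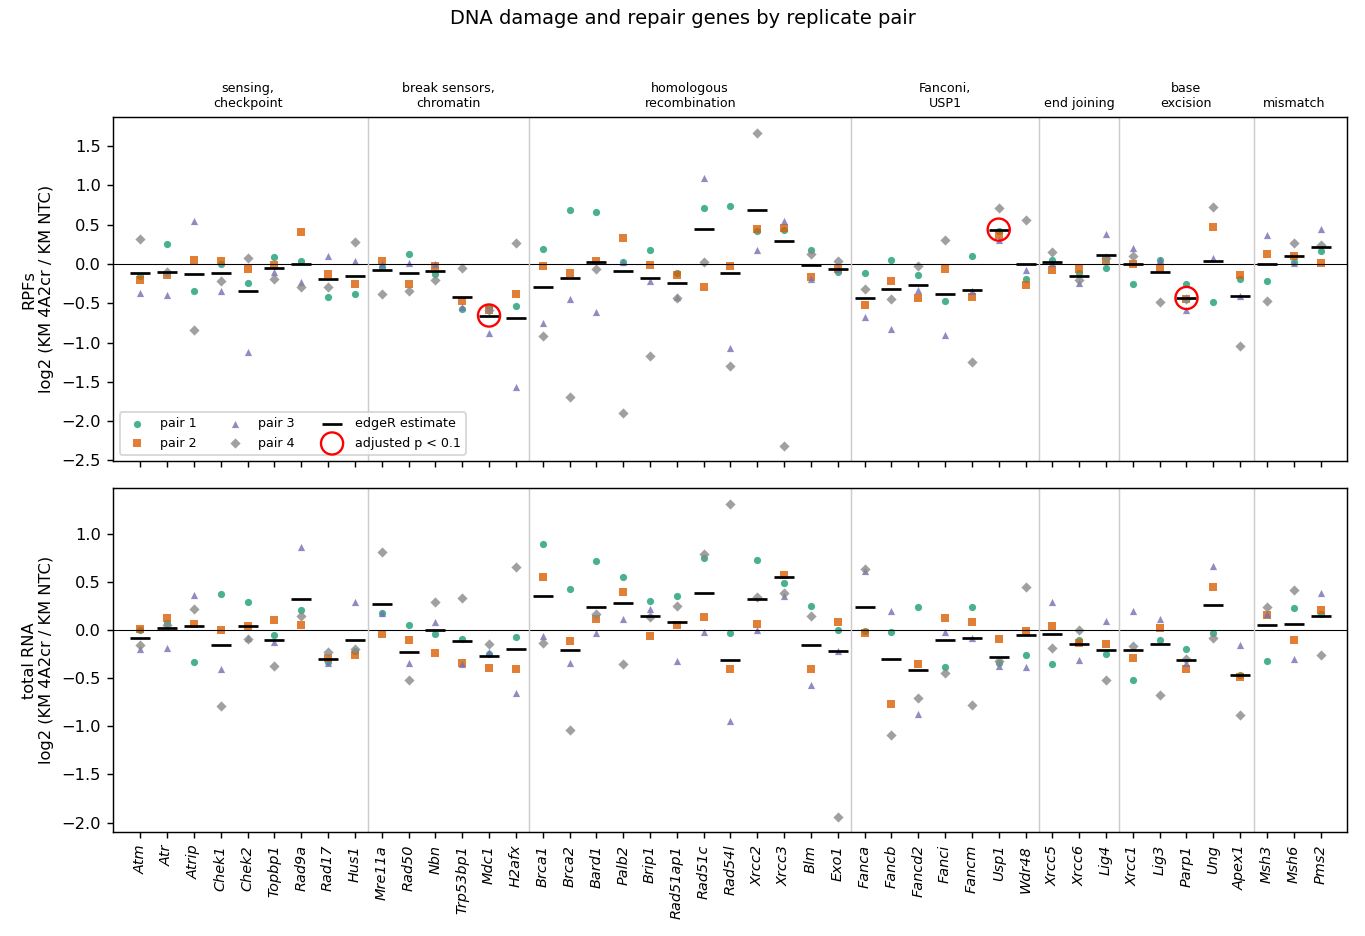
Each column is 1 repair gene, grouped by role, and each point is the log2 difference between KM_4A2cr and KM_NTC within 1 replicate pair, for RPFs (top) and total RNA (bottom). Black bars are the edgeR estimates and red circles the 3 genes past an adjusted p of 0.1 in RPFs, *Mdc1*, *Parp1* and *Usp1*, whose 4 pairs lie on 1 side of 0.

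Promoter sequences are shown for the 3 called genes that have one in the RefSeq table used, since a reader may want to see what lies upstream of them. Each is the 250 bases before the RefSeq start in GRCm38.p6, another build than that of the deposited files, written 5′ to 3′ on the gene's strand. Capitals mark the motifs searched on both strands, which were an E2F element (TTTGGCGC, TTTCCCGC, TTTCGCGC or TTTGCCGC), a CHR element (TTTGAA or TTCGAA) and a CCAAT box (CCAAT). *Brca1* lies on the minus strand at chr11:101551956-101552205, *Mdc1* on the plus strand at chr17:35841248-35841497 and *Parp1* on the plus strand at chr1:180568641-180568890.
Brca1: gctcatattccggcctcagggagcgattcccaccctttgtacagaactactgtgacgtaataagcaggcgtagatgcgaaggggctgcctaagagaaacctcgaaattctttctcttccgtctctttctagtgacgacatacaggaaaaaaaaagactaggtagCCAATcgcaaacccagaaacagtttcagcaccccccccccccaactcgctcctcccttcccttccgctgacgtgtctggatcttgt
Mdc1: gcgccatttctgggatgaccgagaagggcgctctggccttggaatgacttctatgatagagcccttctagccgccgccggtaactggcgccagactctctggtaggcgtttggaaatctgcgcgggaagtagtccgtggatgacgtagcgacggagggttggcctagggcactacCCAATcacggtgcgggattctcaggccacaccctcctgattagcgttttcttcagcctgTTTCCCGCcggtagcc
Parp1: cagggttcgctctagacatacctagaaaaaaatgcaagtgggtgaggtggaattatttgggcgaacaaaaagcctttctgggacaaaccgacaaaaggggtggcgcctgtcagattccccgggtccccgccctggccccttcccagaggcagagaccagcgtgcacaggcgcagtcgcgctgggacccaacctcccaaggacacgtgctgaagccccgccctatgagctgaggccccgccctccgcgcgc

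The *Brca1* window holds a CCAAT box 86 bases before the start. The *Mdc1* window holds a CCAAT box 75 bases and an E2F element 16 bases before the start. None of these letters occurs in the *Parp1* window. Of the 45 genes, 37 had a window, and an E2F element occurred in 7 of them (18.9%), among them *Brca2*, *Bard1*, *Chek2* and *Topbp1*. The same letters occurred in 1.91% of all 27025 windows and in 3.83% of the 8320 windows of genes tested in RPFs. A CCAAT box occurred in 19 windows (51.4%), against 34.5% of all windows and 37.2% of those of tested genes. A CHR element occurred in 4 windows (10.8%), against 17.4% and 11.7%. These matches are descriptions of the sequence and not evidence of binding.

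Among the sensing and checkpoint genes, 0 of 9 passed in any readout. The RPF log2 fold change was below 0 for 8 of 9, with a median of -0.12 and a lowest value of -0.35. *Atm*, the kinase that responds to double-strand breaks, had 70.9, 56.7, 40.7 and 23.5 RPF CPM in KM_NTC replicates 1 to 4 and 63.5, 49.3, 31.4 and 29.4 CPM in KM_4A2cr. The KM_4A2cr values all lay within the KM_NTC range, and 3 of 4 pairs were lower in KM_4A2cr (log2 fold change -0.12, SE 0.14, adjusted p = 0.653). *Atr*, the kinase of stalled forks, had 27.3, 71.0, 60.9 and 29.2 CPM in KM_NTC and 32.6, 64.2, 46.2 and 27.2 CPM in KM_4A2cr. Both libraries of replicates 2 and 3 were above all of replicates 1 and 4, and the log2 fold change was -0.10 (SE 0.14, adjusted p = 0.711). *Chek1*, the kinase downstream of ATR, had 23.4, 23.3, 18.5 and 5.04 CPM in KM_NTC and 23.3, 23.9, 14.4 and 4.31 CPM in KM_4A2cr. Its replicate 4 libraries were the lowest of both lines, and its log2 fold change was -0.11 (SE 0.15, adjusted p = 0.68).

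Total RNA of the checkpoint genes did not pass either. *Atm* had a log2 fold change of -0.08, *Atr* of 0.02 and *Chek1* of -0.16, with adjusted p between 0.714 and 0.965. *Rad17*, which loads the clamp that activates ATR, had the smallest p of the group, with a total RNA log2 fold change of -0.30 (SE 0.12, adjusted p = 0.209) and lower values in 4 of 4 pairs. *Rad9a*, a subunit of that clamp, had 0.32 in total RNA and 0.00 in RPFs (adjusted p = 0.36 and 0.999).

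Of the 6 genes for break sensors and chromatin marks, 1 fell in RPFs and all had an RPF log2 fold change below 0, with a median of -0.26. *Mdc1*, the adaptor that binds phosphorylated H2AX and recruits further repair factors, had 29.7, 58.1, 42.7 and 34.6 RPF CPM in KM_NTC replicates 1 to 4 and 20.3, 38.5, 23.1 and 22.9 CPM in KM_4A2cr. KM_4A2cr was lower in 4 of 4 pairs, and of its libraries replicate 2 alone lay within the KM_NTC range. Its RPFs fell by 0.66 on the log2 scale (SE 0.13, adjusted p = 0.0259 by edgeR), the 57th smallest p among the genes that were lower. Total RNA of *Mdc1* was 18.5, 24.1, 17.8 and 16.1 CPM in KM_NTC and 15.5, 18.3, 15.1 and 14.5 CPM in KM_4A2cr. That difference was also negative in 4 of 4 pairs but did not pass (log2 fold change -0.27, SE 0.13, adjusted p = 0.332). The footprints per mRNA had a log2 fold change of -0.37 (SE 0.14, adjusted p = 0.201). The RPF call was kept by DESeq2 (adjusted p = 0.00981) and without replicate 4 (0.00207), and was lost without replicate 1 (0.103), replicate 2 (0.183) or replicate 3 (0.239), with estimates between -0.55 and -0.69.

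The other 5 break sensors did not pass in RPFs, and all had values below 0. *Trp53bp1*, which encodes 53BP1 and favours end joining, had 63.9, 112, 82.7 and 83.9 RPF CPM in KM_NTC and 42.9, 80.4, 56.5 and 81.3 CPM in KM_4A2cr. Its replicate 4 values were almost equal while the other 3 pairs were clearly apart. The log2 fold change was -0.42 (SE 0.14, adjusted p = 0.113), and without replicate 4 it was -0.53 (adjusted p = 0.00251). Without replicate 4, 33.4% of all genes tested in RPFs passed. *Trp53bp1* did not pass without replicate 1, 2 or 3. *Trp53bp1* lies on chromosome 2, where 71.1% of 838 tested genes had an RPF log2 fold change below 0 and the median was -0.21, against 51.1% and -0.01 of all genes. Its median in total RNA was -0.17 over 908 genes of that chromosome, against 0.01. The part of this in the *Trp53bp1* value was not tested.

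*H2afx*, the histone variant phosphorylated at breaks, had 23.3, 15.5, 29.6 and 3.99 RPF CPM in KM_NTC and 15.9, 11.8, 9.82 and 4.85 CPM in KM_4A2cr. KM_4A2cr was lower in replicates 1 to 3 and higher in replicate 4, where both libraries were at their lowest. The log2 fold change was -0.69 (SE 0.25, adjusted p = 0.139), and it was -0.82 (adjusted p = 0.0105) without replicate 4. *H2afx* did not pass without replicate 1, 2 or 3. Reads of histone H2A genes can be shared among near-identical copies, so the value is uncertain. The members of the MRN complex, which tethers and trims broken ends, had RPF log2 fold changes of -0.08 for *Mre11a*, -0.11 for *Rad50* and -0.08 for *Nbn*, with adjusted p between 0.656 and 0.78.

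Homologous recombination genes were split between readouts. In RPFs 8 of 12 were below 0 with a median of -0.08, whereas in total RNA 8 of 12 were above 0 with a median of 0.19, and none of the 12 passed in either. *Brca1*, the ubiquitin ligase subunit that promotes resection and recombination, had 18.9, 19.3, 21.4 and 13.2 total RNA CPM in KM_NTC replicates 1 to 4 and 35.3, 28.4, 20.4 and 12.0 CPM in KM_4A2cr. KM_4A2cr was higher in replicates 1 and 2 and about level in replicates 3 and 4 (log2 fold change 0.36, SE 0.18, adjusted p = 0.344). *Brca1* RPFs were 16.7, 16.1, 17.9 and 9.86 CPM in KM_NTC and 19.2, 15.7, 10.52 and 5.12 CPM in KM_4A2cr. Here KM_4A2cr was lower in 3 of 4 pairs (log2 fold change -0.30, SE 0.21, adjusted p = 0.428).

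Neither *Brca1* readout passed alone, but their ratio was lower in every KM_4A2cr library. RPF CPM divided by total RNA CPM was 0.884, 0.832, 0.84 and 0.746 in KM_NTC and 0.544, 0.555, 0.515 and 0.427 in KM_4A2cr, with means of 0.825 ± 0.058 and 0.51 ± 0.058 (SD, n = 4). The lines did not overlap, and the spread among replicates of the ratio was far smaller than that of either readout. Footprints per mRNA fell by 0.67 on the log2 scale (SE 0.15, adjusted p = 0.0339 by edgeR). These ratios rest on between 19 and 185 RPF counts and between 52 and 223 total RNA counts per library. The estimate stayed between -0.63 and -0.72 without each replicate in turn, and the adjusted p was 0.271, 0.166 and 0.22 without replicates 1, 2 and 3 and 0.0173 without replicate 4. *Brca1* has a single isoform in the deposited tables, so both readouts count the same transcript.

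*Bard1*, whose product is the partner of BRCA1 in the ligase, had log2 fold changes of 0.03 in RPFs, 0.23 in total RNA and -0.22 in footprints per mRNA (adjusted p = 0.951, 0.481 and 0.638). *Palb2*, which links BRCA1 to BRCA2, had -0.09, 0.28 and -0.43 (adjusted p = 0.89, 0.52 and 0.541). *Brip1*, the helicase bound to BRCA1, had -0.18, 0.14 and -0.30 (adjusted p = 0.632, 0.614 and 0.478). These genes had the signs of *Brca1* in total RNA and in footprints per mRNA, and none of them passed. *Brca2* had -0.20 in total RNA and -0.01 in footprints per mRNA. Of the 12 recombination genes, 8 were above 0 in total RNA and 7 below 0 in footprints per mRNA. The signs are thus not particular to the partners of BRCA1.

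*Brca2*, a central gene of homologous recombination, had 6.25, 20.3, 17.7 and 6.71 RPF CPM in KM_NTC and 10.3, 18.7, 12.9 and 1.88 CPM in KM_4A2cr. The lines overlapped, and KM_4A2cr was lower in 3 of 4 pairs (log2 fold change -0.18, SE 0.28, adjusted p = 0.735). *Xrcc2*, another recombination gene, was scarce, with 4.16, 1.29, 0.959 and 1.26 CPM in KM_NTC and 5.68, 1.85, 1.12 and 4.58 CPM in KM_4A2cr. All 4 pairs were higher in KM_4A2cr, and the largest step was that of replicate 4 (log2 fold change 0.68, SE 0.30, adjusted p = 0.213).

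Of the 7 genes for the Fanconi pathway and its deubiquitinase, 5 were below 0 in RPFs, with a median of -0.32, and 6 in total RNA, with a median of -0.11. Those above 0 were *Usp1* and *Wdr48* in RPFs and *Fanca* in total RNA, and of the 7 only *Usp1* passed a test. *Usp1* RPFs were 42.4, 28.8, 32.7 and 14.9 CPM in KM_NTC replicates 1 to 4 and 56.6, 37.1, 40.7 and 24.5 CPM in KM_4A2cr. KM_4A2cr was higher in 4 of 4 pairs, although the lines overlapped and replicate 4 was lowest in each. RPFs rose by 0.44 on the log2 scale (SE 0.13, adjusted p = 0.091 by edgeR). Total RNA of *Usp1* was 177, 158, 173 and 90.1 CPM in KM_NTC and 139.7, 148, 134 and 72.1 CPM in KM_4A2cr. That was lower in KM_4A2cr in 4 of 4 pairs, without passing the test (log2 fold change -0.28, SE 0.12, adjusted p = 0.249).

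The ratio of *Usp1* RPF CPM to total RNA CPM was 0.239, 0.182, 0.189 and 0.165 in KM_NTC and 0.406, 0.251, 0.303 and 0.34 in KM_4A2cr. Every KM_4A2cr library was above every KM_NTC library, with means of 0.325 ± 0.065 and 0.194 ± 0.032 (SD, n = 4). Footprints per mRNA rose by 0.70 on the log2 scale (SE 0.11, adjusted p = 0.00334 by edgeR), the 2nd smallest p among all genes that were higher. The counts behind it were between 71 and 469 RPFs and between 313 and 1756 total RNA counts per library. Of the 2 *Usp1* isoforms in the tables, the one used for RPFs held 50.8% of the gene's total RNA counts in KM_NTC and 50.9% in KM_4A2cr. With total RNA of that isoform alone the value was 0.67 (adjusted p = 0.00306).

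The *Usp1* values without each replicate in turn lay between 0.65 and 0.80 for footprints per mRNA, with an adjusted p of 0.101 without replicate 1 and of 0.0412, 0.0937 and 0.000762 without replicates 2, 3 and 4. In RPFs the rise was near the threshold. It was not called with upper-quartile factors (adjusted p = 0.111), with no filter on low counts (0.107) or with library size alone (0.227). Its adjusted p was 0.136 by DESeq2, 0.231, 0.36 and 0.275 without replicates 1, 2 and 3, and 0.0316 without replicate 4, with estimates between 0.37 and 0.52.

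**Figure D2:**
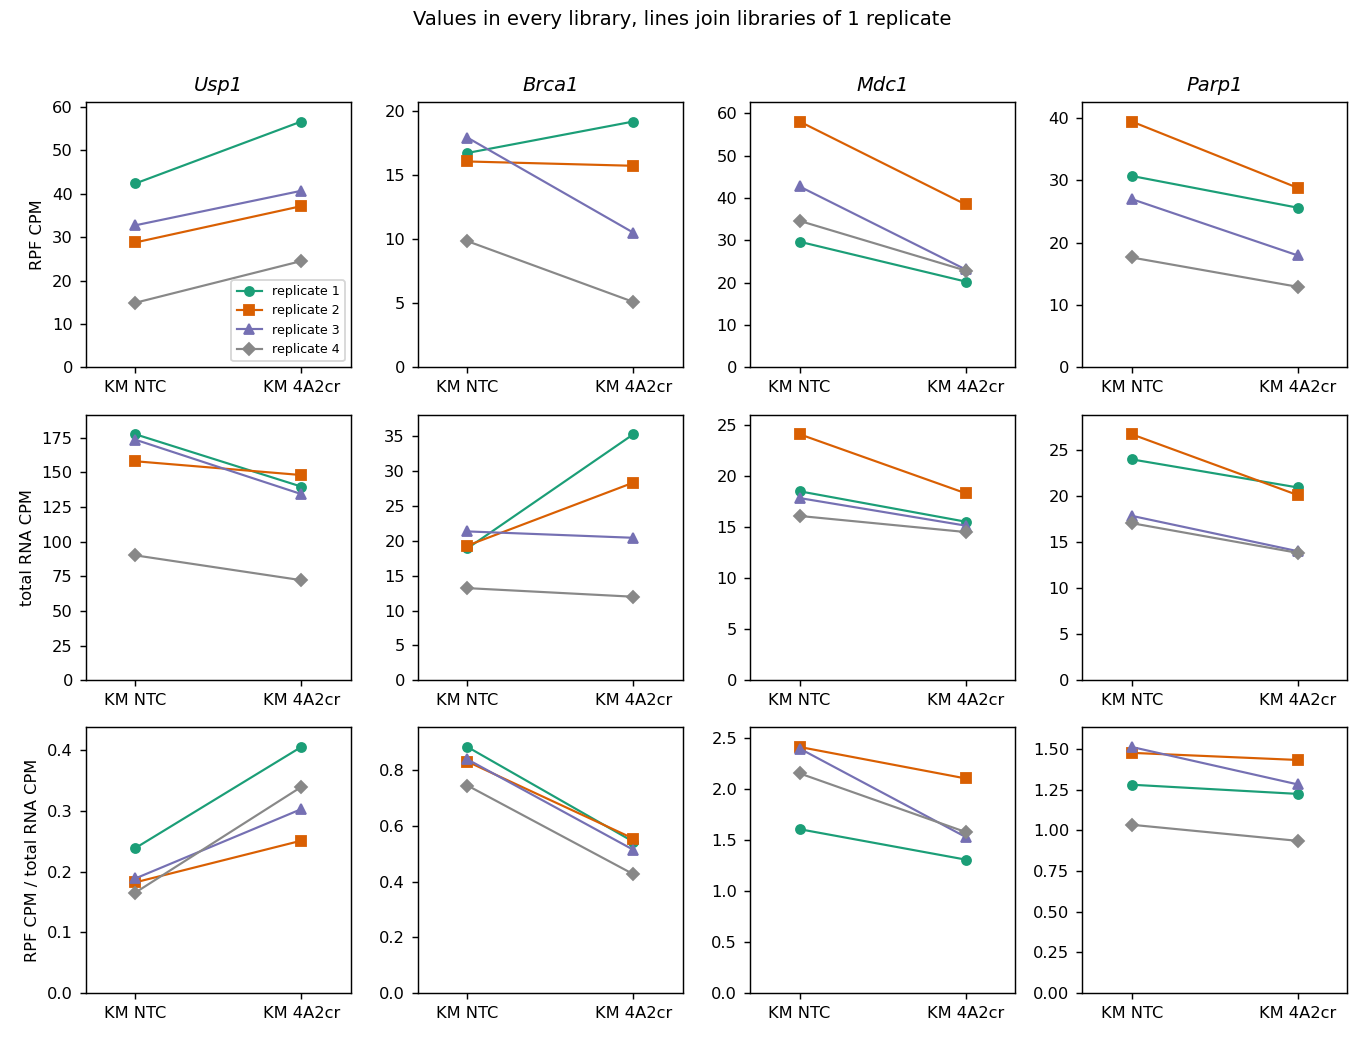
Values of the 4 called repair genes in every library, with RPF CPM (top), total RNA CPM (middle) and their ratio (bottom) on axes that start at 0, and lines joining the 2 libraries of 1 replicate. The *Usp1* ratio is higher and the *Brca1* ratio lower in every KM_4A2cr library than in any KM_NTC library, while *Mdc1* and *Parp1* are lower in 4 of 4 pairs in RPFs and in total RNA.

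The genes for the partner and the substrates of USP1 did not pass in any readout. *Wdr48* had 62.8, 77.0, 57.8 and 73.0 RPF CPM in KM_NTC and 55.2, 63.8, 55.0 and 107.7 CPM in KM_4A2cr. KM_4A2cr was lower in 3 pairs and far higher in replicate 4 (log2 fold change 0.00, SE 0.16, adjusted p = 0.996). Without replicate 4 the *Wdr48* value was -0.18 (adjusted p = 0.24 by edgeR). *Fancd2* had 10.7, 34.4, 21.2 and 7.13 CPM in KM_NTC and 9.66, 25.5, 16.8 and 7.00 CPM in KM_4A2cr. Its 4 pairs were all lower in KM_4A2cr, by amounts that did not pass (log2 fold change -0.27, SE 0.14, adjusted p = 0.296). *Fanci* had 4.62, 14.6, 8.35 and 1.47 CPM in KM_NTC and 3.26, 13.9, 4.35 and 1.88 CPM in KM_4A2cr, with replicate 2 highest in both lines (log2 fold change -0.38, SE 0.22, adjusted p = 0.336). Footprints per mRNA were 0.05, 0.10 and -0.30 for *Wdr48*, *Fancd2* and *Fanci* (adjusted p = 0.897, 0.853 and 0.639). That the change of *Usp1* differs from theirs was not tested.

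*Fanca*, a subunit of the Fanconi core complex that attaches the ubiquitin, had RPFs of 9.96, 19.4, 17.1 and 3.78 CPM in KM_NTC and 9.18, 13.4, 10.7 and 2.96 CPM in KM_4A2cr. The pairs were all lower in KM_4A2cr (log2 fold change -0.44, SE 0.17, adjusted p = 0.156), while total RNA had 0.24 (adjusted p = 0.607). The *Fanca* ratio was 2.15, 2.91, 3.52 and 2.46 in KM_NTC and 2.00, 2.07, 1.41 and 1.17 in KM_4A2cr, so the lines did not overlap. The test of footprints per mRNA did not pass (log2 fold change -0.67, SE 0.24, adjusted p = 0.168). The *Fanca* ratios rest on between 11 and 195 RPF counts and between 8 and 74 total RNA counts per library. In all, the ratios of the lines did not overlap for 4 of 45 repair genes, *Usp1*, *Brca1*, *Fanca* and *Xrcc1*, which is 8.89% where 3.05% of all tested genes did not overlap. In RPFs and in total RNA it was 0 of 45, where 2.13% and 1.97% of all tested genes did not overlap. The *Xrcc1* ratios were barely apart, with a highest KM_NTC value of 1.7601 and a lowest KM_4A2cr value of 1.7634. Footprints per mRNA of *Xrcc1* had a log2 fold change of 0.21 (adjusted p = 0.648 by edgeR).

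**Figure D3:**
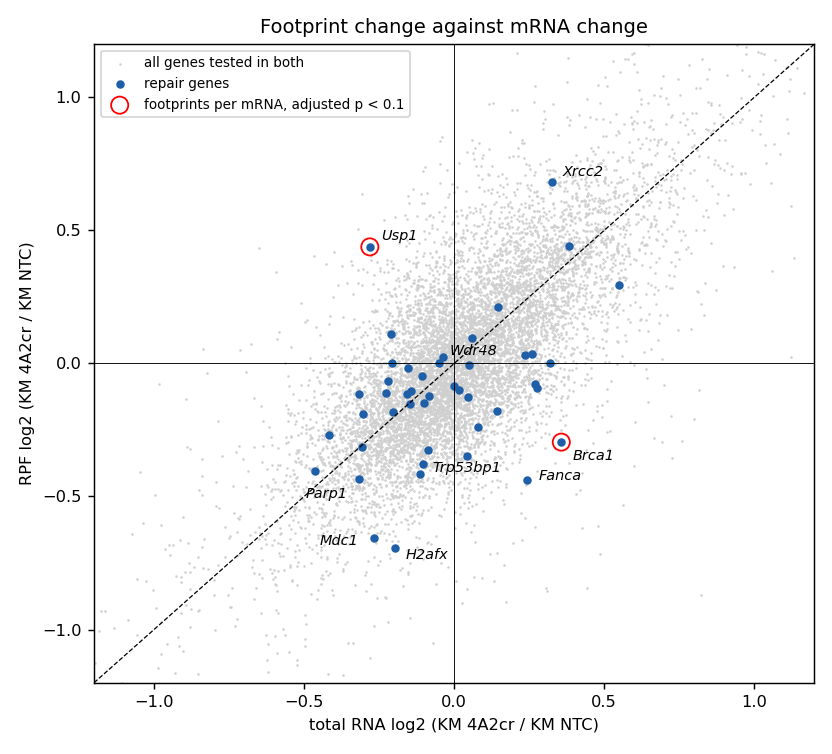
RPF log2 fold change (y axis) against total RNA log2 fold change (x axis), KM_4A2cr against KM_NTC, for repair genes (blue) and all genes tested in both readouts (grey, within the axis limits). The dashed line marks equal change in both, and the 2 circled genes passed the test of footprints per mRNA, *Usp1* above the line and *Brca1* below it.

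The 3 end joining genes measured, *Xrcc5* and *Xrcc6* (the Ku subunits that cap broken ends) and *Lig4* (the ligase that seals them), had RPF log2 fold changes of 0.02, -0.15 and 0.11, with adjusted p between 0.502 and 0.933. Total RNA was below 0 for all 3, with a median of -0.15, and none passed. Of the 3 mismatch repair genes none passed either. *Msh6*, which encodes a protein that recognises mispaired bases, had 57.6, 46.5, 28.8 and 29.2 RPF CPM in KM_NTC and 58.6, 49.7, 29.0 and 35.3 CPM in KM_4A2cr. Its 4 pairs were slightly higher in KM_4A2cr, by less than the spread between replicates (log2 fold change 0.10, SE 0.12, adjusted p = 0.676).

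Base excision and single-strand break repair held the other fall in RPFs. *Parp1*, the enzyme that binds nicked DNA and builds poly(ADP-ribose) chains, had 30.7, 39.4, 26.98 and 17.6 RPF CPM in KM_NTC replicates 1 to 4 and 25.6, 28.8, 18.0 and 12.9 CPM in KM_4A2cr. Every pair was lower in KM_4A2cr, and the lines overlapped. RPFs fell by 0.43 on the log2 scale (SE 0.13, adjusted p = 0.0941 by edgeR). Total RNA was 24.0, 26.7, 17.8 and 17.1 CPM in KM_NTC and 20.9, 20.1, 14.0 and 13.8 CPM in KM_4A2cr, lower in 4 of 4 pairs but not past the threshold (log2 fold change -0.32, SE 0.13, adjusted p = 0.237). Footprints per mRNA had -0.11 (SE 0.14, adjusted p = 0.783). The RPF call was not made by DESeq2 (adjusted p = 0.198), nor without replicate 1, 2 or 3 (0.186, 0.404 and 0.396), and it held without replicate 4 (0.0275).

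*Apex1*, the endonuclease that cuts at abasic sites, was lower in KM_4A2cr in 4 of 4 pairs of both readouts, with log2 fold changes of -0.41 in RPFs (adjusted p = 0.178) and -0.46 in total RNA (adjusted p = 0.138), neither past the threshold. *Ung*, which removes uracil from DNA, had 0.04 and 0.26 (adjusted p = 0.945 and 0.537). *Xrcc1* and *Lig3*, the scaffold and the ligase of single-strand break repair, had RPF values of 0.00 and -0.10 (adjusted p = 0.997 and 0.72).

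Without replicate 4 more of the 45 genes passed. In RPFs these were 6, with *Usp1* higher and *Mdc1*, *Trp53bp1*, *H2afx*, *Parp1* and *Fanca* lower in KM_4A2cr. In total RNA they were 7, with *Brca1* higher by 0.48 (adjusted p = 0.0233) and *H2afx*, *Apex1*, *Rad17*, *Usp1*, *Parp1* and *Trp53bp1* lower, by log2 values between -0.40 and -0.27. The background rose with them, to 33.4% of all genes tested in RPFs and 29.8% in total RNA. In footprints per mRNA *Usp1* and *Brca1* passed and no other repair gene, where 6.68% of all tested genes did.

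In replicate 4 the RPF level was below the mean of replicates 1 to 3 for 38 of 45 genes, with a median log2 difference of -0.89, where the median of all tested genes was -0.02 and 50.9% were below 0. In total RNA it was 35 of 45, with a median of -0.54 against 0.02. The lowest RPF values were those of *Rad54l* at -2.12, *Chek1* at -2.10, *Fanci* at -1.91 and *Exo1* at -1.88. *Wdr48* at 0.53 and *Lig4* at 0.38 were the highest. The *Cd68* level and the depth of the libraries moved with replicate 4 too, and their part in these values was not tested.

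**Figure D4:**
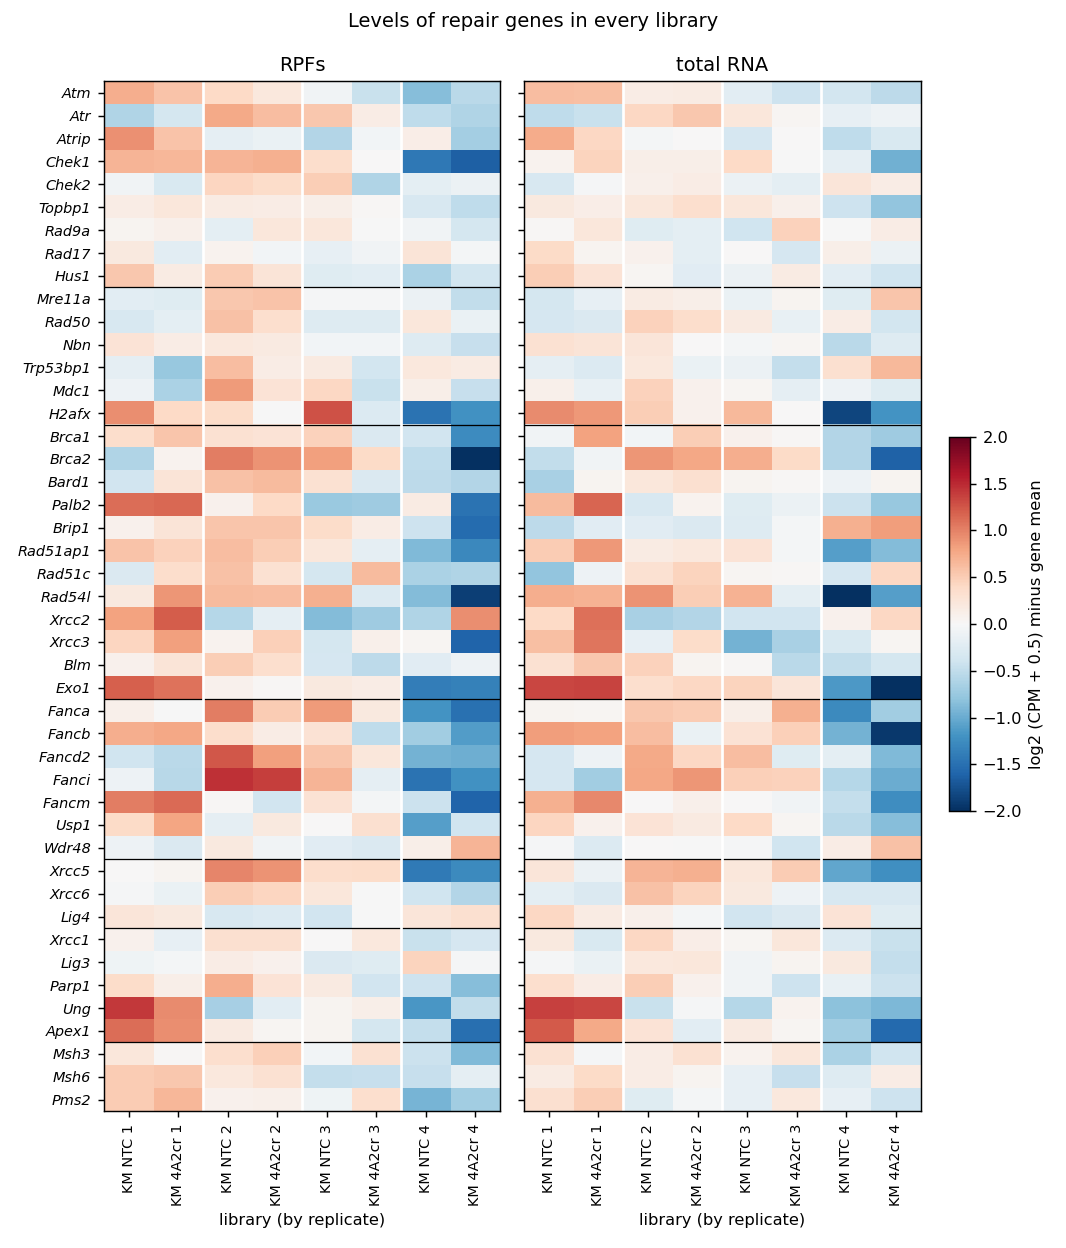
Log2 (CPM + 0.5) of each repair gene minus its mean over the 8 libraries of a readout, with libraries ordered by replicate and genes by role, separately for RPFs (left) and total RNA (right). Neighbouring KM_NTC and KM_4A2cr columns of 1 replicate look alike, and most genes are blue, below their mean, in replicate 4.

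Levels between genes can be compared in TPM, which divides by transcript length. The median repair gene had 8.00 TPM of total RNA in KM_NTC and none had a mean under 1 TPM. *Usp1* had the highest mean at 79.4 ± 27.6 TPM (SD, n = 4), with 60.4 ± 26.6 TPM in KM_4A2cr. *Topbp1* followed at 61.8 ± 19.0 TPM and *H2afx* at 60.4 ± 34.5 TPM in KM_NTC. *Wdr48* had 33.8 ± 4.24 TPM. *Brca1* had 5.08 ± 1.47 TPM, *Brca2* 4.20 ± 2.62 TPM and *Fancd2* 4.81 ± 2.40 TPM, so these well-known genes were in the lower part of the order. *Xrcc3* had the lowest mean, 1.28 ± 0.78 TPM. All 44 pairs of neighbours in this order overlapped in their KM_NTC range, so no rank is apart from the next.

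The genes whose RPF profile was most like that of *Usp1* were found by Pearson correlation of log2 CPM over the 8 RPF libraries after centring each replicate pair, which leaves 4 differences, so values near 1 are common and carry no test. Over all tested genes they were *Gna11* (r = 0.999), *Tfcp2l1* (0.998), *Aes* (0.996), *Ormdl3* (0.995) and *Higd1a* (0.995). Among repair genes they were *Xrcc2* (0.927), *Msh6* (0.879), *Pms2* (0.756), *Xrcc5* (0.636) and *Ung* (0.541), of which none passed in RPFs.

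A wider list of 150 other repair genes, of which 146 were matched, had a smaller share of calls than all tested genes in each readout when both directions are counted together. In RPFs 0 rose and 6 fell of 139 tested (4.32%), where 6.6% of all tested genes rose and 3.72% fell. The list had a median log2 fold change of -0.07 and 67.6% below 0. The 6 were *Rif1* (-0.54), *Rtel1* (-0.67), *Dclre1c* (-0.81), *Mgmt* (-0.79), *Faap20* (-0.71) and *Nthl1* (-0.62), with adjusted p between 0.0398 and 0.0982 by edgeR. *Rif1*, the effector of 53BP1, had 169, 182, 143 and 79.1 RPF CPM in KM_NTC and 128, 123, 96.9 and 50.4 CPM in KM_4A2cr, lower in 4 of 4 pairs. *Rif1*, *Rtel1* (a helicase that dismantles DNA loops) and *Dclre1c* (the Artemis nuclease of end joining) lie on chromosome 2, where 10.3% of 838 tested genes fell in RPFs against 3.72% of all tested genes. *Mgmt*, which reverses alkylated guanine, had RPFs of 5.43, 5.16, 6.44 and 4.20 CPM in KM_NTC and 3.74, 3.44, 2.53 and 2.42 CPM in KM_4A2cr, with no overlap.

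In total RNA 1 of 142 of these genes rose and 1 fell (1.41%), and in footprints per mRNA 1 of 138 rose and 1 fell (1.45%). *Ercc1*, a subunit of the nuclease of nucleotide excision repair, had total RNA of 23.4, 18.8, 21.4 and 13.8 CPM in KM_NTC and 30.4, 26.5, 35.03 and 24.2 CPM in KM_4A2cr. Total RNA of *Ercc1* rose by 0.59 on the log2 scale (SE 0.13, adjusted p = 0.0454 by edgeR) while its RPFs had 0.01, and its footprints per mRNA fell by 0.56 (SE 0.14, adjusted p = 0.0533). *Rtel1* total RNA fell by 0.59 (SE 0.16, adjusted p = 0.0798). *Parg*, whose product degrades the chains made by PARP1, had ratios of 0.31, 0.343, 0.315 and 0.291 in KM_NTC and 0.455, 0.419, 0.415 and 0.519 in KM_4A2cr, without overlap. Its footprints per mRNA rose by 0.49 (SE 0.12, adjusted p = 0.0538), with RPFs and total RNA at 0.26 and -0.25, neither past the threshold. Each call named in this wider list held without replicate 4 and was lost without replicate 1, 2 or 3, from *Ercc1* total RNA without replicate 1 (adjusted p = 0.116) to *Rtel1* total RNA without replicate 3 (0.506).

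Target genes of p53, a transcription factor that ATM and CHK2 can activate, were examined as a further list. Whether their values reflect DNA damage was not tested. *Polk*, *Xpc* and *Ddb2* are in both this list and the wider list of repair genes. Of 19 tested, 1 rose in RPFs and 2 in total RNA, where 6.6% and 4.35% of all tested genes rose. The medians were 0.24 and 0.34, against -0.01 and 0.01 for all genes, and 16 of 19 were above 0 in total RNA. In footprints per mRNA 1 rose and 1 fell, 13 of 19 were below 0 and the median was -0.11, against -0.02. Without replicate 4 the RPF median of this list turned to -0.02, with 11 of 19 below 0, and the total RNA median was 0.11. *Cdkn1a*, the cell cycle inhibitor p21, had total RNA of 48.7, 71.7, 67.3 and 76.6 CPM in KM_NTC and 62.5, 89.1, 98.5 and 192 CPM in KM_4A2cr. It was higher in 4 of 4 pairs, and replicate 4 of KM_4A2cr was far above the others (log2 fold change 0.64, SE 0.17, adjusted p = 0.0794 by edgeR). Without replicate 4 the total RNA value of *Cdkn1a* was 0.40 (adjusted p = 0.00673), and without replicates 1, 2 and 3 the adjusted p was 0.168, 0.185 and 0.373. RPFs of *Cdkn1a* were higher in 3 of 4 pairs and did not pass (log2 fold change 0.41, SE 0.23, adjusted p = 0.325 by edgeR). Its footprints per mRNA had -0.21 (SE 0.12, adjusted p = 0.421) and did not pass either. *Mdm2*, which encodes the ubiquitin ligase for p53, had total RNA of 298, 285, 304 and 284 CPM in KM_NTC and 224, 236, 204 and 561 CPM in KM_4A2cr. Replicates 1 to 3 were lower in KM_4A2cr and replicate 4 was far higher (log2 fold change -0.08, SE 0.23, adjusted p = 0.90). *Ei24* rose in each readout, by 1.14 in RPFs (adjusted p = 0.00505), 0.53 in total RNA (0.0499) and 0.60 in footprints per mRNA (0.00478). Footprints per mRNA of *Ccng1* fell by 0.36 (adjusted p = 0.0893). These calls too held without replicate 4, and of them only the *Ei24* calls in RPFs, without replicates 1 and 2, and in footprints per mRNA, without each replicate, held without another one.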

How the data were processed

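For RPFs the authors trimmed reads with Cutadapt 1.18, removed duplicates with UMI-tools 1.0.1, aligned to 1 transcript per gene, its most abundant (GENCODE mouse release 27), and deposited whole-number counts per transcript over coding sequence, leaving out 20 codons at its start and 10 at its end. For total RNA they aligned with Bowtie2 2.3.5.1 and deposited RSEM 1.3.3 expected counts and TPM per isoform. SAMtools 1.9 is also named in the submitters' processing notes.

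The expected counts were summed per gene and rounded, and TPM were summed. Tests used R 4.3.3, edgeR 4.0.16 (filterByExpr, TMM, glmQLFit, glmQLFTest), limma 3.58.1 and DESeq2 1.42.0, with cell line and replicate block, Benjamini-Hochberg adjustment over all tested genes and a threshold of 0.1. SE is the fold change divided by the root of its F statistic. CPM were computed with TMM factors and log2 CPM with a prior count of 2. RPFs and total RNA were scaled separately, so a change shared by all genes of a readout is not seen.

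The labels describe replicates as harvests on different days, without saying that a number is shared between lines. Deviations of same-numbered libraries from their line means correlated at 0.763, 0.782, 0.575 and 0.687 in RPFs and at 0.756, 0.736, 0.611 and 0.708 in total RNA for replicates 1 to 4, so the numbers were taken to pair the lines.

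The genes, lists and tests were chosen with earlier results of these data known. By rule, full values are given for *Usp1*, its partner and substrates, named genes of each role and each repair gene past the threshold, for the wider list at most 5 genes per direction and readout, and for *Cdkn1a*, *Mdm2* and *Eif4a2*. Other named genes, among them *Xrcc2*, *Fanca*, *Ei24*, *Ccng1* and *Nthl1*, and the values by chromosome were added after their values were seen. Alternatives were no block, DESeq2, other scalings and filters, a threshold of 0.05, the RPF isoform only and each replicate left out. The scripts were tested on simulated data with changes of 1 on the log2 scale. Of these changes 90.4% were recovered in RPFs, 92.0% in total RNA and 67.2% in footprints per mRNA. Among the simulated calls at the threshold of 0.1, the false ones were 10.9%, 8.96% and 13.1%.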

Additional observations from a re-analysis of the deposited data

Results flagged for a closer look

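Of 56 groups of 4 libraries examined for the named repair genes, 3 held a library whose gap to the others was past Dixon's 95% limit, where chance alone passes about 1 in 20 groups. They were *Wdr48* RPFs in KM_4A2cr replicate 4 (107.7 CPM), *Wdr48* total RNA in KM_NTC replicate 4 (71.7 CPM) and *Mdc1* RPFs in KM_4A2cr replicate 2 (38.5 CPM), each the highest of its group.

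The RPF and the total RNA log2 fold changes differed, by the interaction test, for *Usp1* (0.70) and for *Brca1* (-0.67).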

How the results depend on the processing

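The number of repair genes past the threshold in RPFs was 3, and it was 0 with no replicate block, 6 when scaled by library size alone (0 higher and 6 lower), 1 by DESeq2, 1 at a threshold of 0.05 and from 0 to 6 without each replicate in turn. In total RNA it was 0, and it was 5 when scaled by library size alone, 1 with no filter on low counts and from 0 to 7 without each replicate. In footprints per mRNA it was 2, and it was 0 with no replicate block and from 0 to 2 without each replicate. The numbers without a replicate rest on fewer libraries, and the RPF calls over all tested genes were 232, 123, 32 and 3469 without replicates 1, 2, 3 and 4, against 1062 with all. In total RNA these were 207, 140, 63 and 3260, against 667, and in footprints per mRNA 10, 41, 15 and 673, against 291. With no replicate block they were 0 in each. The share of higher genes among the RPF calls was 63.9%, and it was 29.8% when scaled by library size alone and 53.5% by upper quartiles. In total RNA it was 70.9%, against 23.2% and 60.1%, and in footprints per mRNA 64.3%, against 78.8% when scaled by library size alone, where 132 genes passed. With no filter on low counts 1268 genes passed in total RNA and 475 in footprints per mRNA. Over the single genes with full values, 437 alternatives kept the side of the threshold, 14 moved past it and 23 fell short of it. The 5 values that passed kept their sign under all 55 of their alternatives. Of the 37 that did not pass, 13 changed sign under at least 1 alternative, in 28 of 419 alternatives. The cause of these changes was not tested.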
